A study of Mus musculus with 6 samples.

Results

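Kruppel-like factors (KLFs) are transcription factors that bind GC-rich DNA and CACCC boxes through C2H2 zinc fingers at their carboxy end, and their more variable amino ends set whether they activate or repress. As background, Klf2, Klf4, Klf6 and Klf7 act mainly as activators, Klf3 represses through the CtBP corepressors, and Klf9, Klf10, Klf11 and Klf13 recruit the Sin3 corepressor, while Klf15 is known as a glucocorticoid-induced regulator of metabolism. Several are induced quickly by growth factors, hormones, shear stress or injury, and in the oligodendrocyte lineage Klf6 and Klf9 are known for roles in maturation. The 10 members described here are Klf2, Klf3, Klf4, Klf6, Klf7, Klf9, Klf10, Klf11, Klf13 and Klf15. They were chosen by symbol with earlier results of these data known, were all found, and stand among 18743 annotated genes listed in any library.

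The study exposed mouse oligodendrocyte progenitor cells (OPCs), the glial precursors that give rise to myelinating cells, to hemin, the oxidised form of heme, and its title sets the work in ferroptosis, an iron-dependent cell death, after bleeding in the brain. The first group of 3 libraries came from cells given 50 µM hemin for 12 h, and the second group of 3 from cells given vehicle, 0.25% DMSO, for 12 h. In both groups the cells were wild-type C57BL/6, were taken from the cortex of pups at postnatal days 0 to 2 with beads against CD140 (PDGFRα), and were expanded for 3 days in growth medium. The labels do not state whether replicates were separate cultures or litters. The p-values therefore describe no more than the spread among these 6 samples, which may be technical.

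Annotated genes held 6463460 to 6523639 expected counts in the hemin libraries and 6339966 to 6390691 in the vehicle libraries. The 6 OPC markers examined were present and summed to 262 to 404 FPKM (fragments scaled by transcript length and library size) in the hemin libraries, against 1003 to 1211 FPKM in the vehicle libraries. All 6 were called lower, from 2.48-fold for Olig1 to 27.1-fold for Gpr17 (edgeR adjusted p at most 0.0136), beside 15.7% of all genes. These calls held under all 13 alternatives. The part of OPC content in the members' values, those of Klf13 and Klf15 among them, was not tested. Astrocyte markers were present as well, at 372 to 505 FPKM summed in hemin and 437 to 521 FPKM in vehicle libraries, and so were neuronal markers, at 58.6 to 90.5 FPKM in hemin and 103 to 133 FPKM in vehicle libraries. Microglial markers were low, with 7 markers summing to 16.9 to 20.2 FPKM in hemin and 7.41 to 12.3 FPKM in vehicle libraries. Of the 5 tested, Tyrobp and Itgam were called higher (edgeR adjusted p = 0.0272 and 0.02), beside 16.2% of all genes. The Tyrobp call was lost without hemin replicate 1 or 3 or any vehicle replicate (edgeR adjusted p from 0.0533 to 0.0928). That of Itgam was lost without hemin replicate 2 or vehicle replicate 2 or 3 (0.0557 to 0.071). The part of microglia in the members' values was not tested. The cultures thus held transcripts of several cell types, and in bulk RNA fewer cells of a type and less RNA per cell cannot be told apart.

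Klf4, Klf10 and Klf6 rose with hemin, by 12.1-fold, 3.67-fold and 2.08-fold, and Klf15, Klf13 and Klf7 fell by 3.86-fold, 3.06-fold and 2.26-fold. Klf3, Klf9 and Klf11 did not pass the test, and Klf2 had too few reads to be tested. Of the 9 members tested, 6 passed an adjusted p of 0.05 (66.7%) in edgeR's quasi-likelihood test with Benjamini-Hochberg adjustment over 12779 genes, against 31.9% of all genes tested. The 3 calls in each direction compare with 16.2% of genes called higher and 15.7% called lower. With libraries scaled by their totals alone the split over all genes shifted to 1715 higher and 2582 lower, and the members' calls stayed at 3 in each direction. Klf4 and Klf7 reached the filter's count minimum in every library of the group where they were high and not in every library of the other. The members were also chosen with earlier results of these data known. The share of members called is therefore a description and no support for a change of the family.

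**Figure D1:**
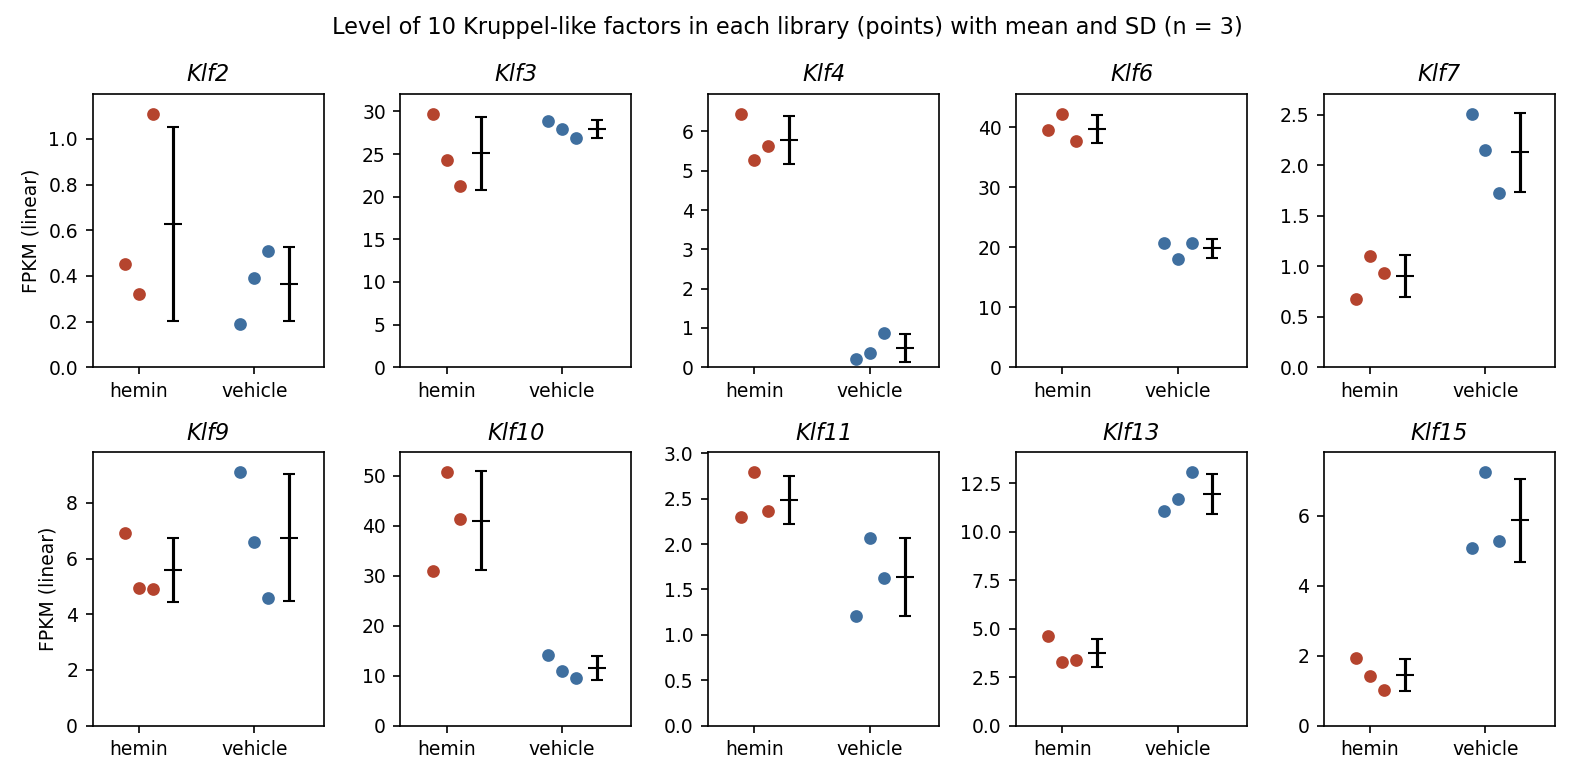
FPKM of each of the 10 factors on a linear axis from 0, with 1 point per library, hemin on the left and vehicle on the right of each panel, and the mean with its SD beside the points. The hemin points of Klf4, Klf6 and Klf10 all lie above the vehicle points, as do those of Klf11, which did not pass the test. Those of Klf7, Klf13 and Klf15 all lie below, and those of Klf2, Klf3 and Klf9 overlap the vehicle points.

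The promoters of Klf4 and Klf6, which rose, and of Klf13 and Klf15, which fell, are shown to set the members with opposite changes beside each other. Each is the RefSeq window of 300 bases from 250 before to 50 after the annotated start, printed 5′ to 3′ on the strand of the gene in build GRCm38.p6. Capitals mark the GC box (GGGCGG) and the CACCC box (CACCC) on either strand, the elements that the family and its Sp relatives bind. The Klf4 window is chr4:55532426-55532725 on the minus strand, that of Klf6 chr13:5861239-5861538 on the plus strand, that of Klf13 chr7:63938866-63939165 on the minus strand and that of Klf15 chr6:90462326-90462625 on the plus strand.
Klf4: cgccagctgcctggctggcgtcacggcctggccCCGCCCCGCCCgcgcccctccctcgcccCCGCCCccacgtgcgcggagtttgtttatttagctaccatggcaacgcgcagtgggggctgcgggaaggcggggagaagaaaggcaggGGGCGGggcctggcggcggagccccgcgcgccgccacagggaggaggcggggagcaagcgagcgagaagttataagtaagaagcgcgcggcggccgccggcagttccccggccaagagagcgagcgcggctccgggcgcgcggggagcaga
Klf6: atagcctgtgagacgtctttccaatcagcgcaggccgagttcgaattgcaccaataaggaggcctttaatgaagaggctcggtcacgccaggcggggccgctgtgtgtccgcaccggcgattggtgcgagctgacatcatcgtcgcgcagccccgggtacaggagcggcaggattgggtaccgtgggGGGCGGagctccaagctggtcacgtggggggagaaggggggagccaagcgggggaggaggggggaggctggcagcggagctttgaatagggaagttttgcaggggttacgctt
Klf13: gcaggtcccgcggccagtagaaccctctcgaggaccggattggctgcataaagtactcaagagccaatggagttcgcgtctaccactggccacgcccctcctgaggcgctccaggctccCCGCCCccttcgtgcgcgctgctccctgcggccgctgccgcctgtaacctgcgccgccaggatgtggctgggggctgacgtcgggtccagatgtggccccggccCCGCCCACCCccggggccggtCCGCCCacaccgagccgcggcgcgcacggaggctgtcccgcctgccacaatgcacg
Klf15: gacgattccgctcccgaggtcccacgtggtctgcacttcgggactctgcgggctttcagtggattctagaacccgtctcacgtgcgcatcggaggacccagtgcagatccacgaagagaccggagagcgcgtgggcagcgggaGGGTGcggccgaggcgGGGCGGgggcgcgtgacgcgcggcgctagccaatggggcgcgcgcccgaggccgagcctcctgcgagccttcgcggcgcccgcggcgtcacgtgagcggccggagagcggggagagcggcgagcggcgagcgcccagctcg

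The windows differ in how many of these boxes they hold. Klf4 held 4 GC boxes, the first 2 overlapping by 1 base, and no CACCC box, and Klf6 held 1 GC box and no CACCC box. Klf13 held 3 GC boxes and 1 CACCC box, which overlaps the second GC box, and Klf15 held 1 of each. A window was found for 9 of the 10 members, and 8 of these 9 held a GC box, against 35.7% of 32851 promoter windows of the same length. A CACCC box was present in 6 of the 9, against 57.5% of all windows. It was found in Klf7, Klf13 and Klf15, which fell, and in Klf2, Klf3 and Klf9, and not in Klf4 and Klf6, which rose, nor in Klf11. Klf10, which also rose, had no window, so the set of members that rose is incomplete here. A link between the CACCC box and the direction of change was not tested. The 9 windows were 58.3% to 77.7% G and C, against a median of 52.7% over all windows, which bears on any count of GC-rich motifs. Of elements bound by stress and growth factor pathways, searched on both strands, the antioxidant element (TGACNNNGC) was found in Klf3, Klf6 and Klf15 (12.4% of all windows), the AP-1 site (TGANTCA) in Klf9 (7.81%) and the heat shock element written TTCNNGAA in Klf15 (8.52%). The cAMP response element (TGACGTCA, 1.79% of all windows), the heat shock element written GAANNTTC (7.86%) and the CArG box of SRF (1.63%) were not found in the 9 windows. A match describes letters and not a bound site.

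Among the activators, Klf4 showed the greatest rise of the family. Klf4, known as a reprogramming factor and for roles in epithelium and endothelium, had 6.45, 5.28 and 5.62 FPKM in hemin replicates 1 to 3, against 0.22, 0.37 and 0.88 FPKM in vehicle replicates 1 to 3. The lowest hemin value lay well above the highest vehicle value. Its fitted log2 fold change was 3.60 ± 0.43 (SE; edgeR adjusted p = 0.00136), the 108th highest of the 12779 genes tested, and it became 4.35, or 20.4-fold, without vehicle replicate 3. Klf4 is also expressed by endothelial cells. Of 7 endothelial markers 4 were tested and 3 rose, Pecam1, Kdr and Tek (edgeR adjusted p = 0.000419, 0.00822 and 0.00214), beside 16.2% of all genes. Those markers summed to 5.18 to 6.52 FPKM in the hemin libraries and 1.55 to 2.30 FPKM in the vehicle libraries, with Cdh5 at most at 0.23 FPKM and Cldn5 at most at 0.17 FPKM with hemin, against at most 0.14 and 0.25 FPKM with vehicle. The part of these cells in the Klf4 value was not tested.

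Klf6, an injury-induced activator that supports the maturation and survival of oligodendrocytes, had 39.5, 42.3 and 37.7 FPKM with hemin, against 20.7, 18.0 and 20.8 FPKM with vehicle. The groups were far apart beside a narrow spread within each. Its log2 fold change was 1.06 ± 0.10 (SE; edgeR adjusted p = 0.000731). Klf6 was among the most abundant members in both groups, so its change moved more transcripts than that of Klf4, at 39.8 ± 2.33 FPKM with hemin and 19.8 ± 1.58 FPKM with vehicle (SD, n = 3 each), against 5.78 ± 0.602 FPKM with hemin and 0.490 ± 0.346 FPKM with vehicle for Klf4.

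Klf7, known for its role in the outgrowth of axons from sensory neurons, had 0.68, 1.10 and 0.93 FPKM with hemin, against 2.51, 2.15 and 1.73 FPKM with vehicle. All hemin values lay below all vehicle values, at low depth: 7.71, 12.15 and 10.19 expected counts with hemin and 27.73, 23.97 and 19.43 with vehicle. Klf7 had a log2 fold change of -1.17 ± 0.31 (SE; edgeR adjusted p = 0.0257). The call was lost in DESeq2 (adjusted p = 0.0892) and, in edgeR, without hemin replicate 1, 2 or 3 (adjusted p = 0.0596, 0.0544 and 0.0672) or vehicle replicate 1 or 2 (0.105 and 0.0833). Klf7 is the only member whose gene counts were not whole within 0.01, which means that the authors' counting shared reads between it and other transcripts, and it overlaps the exons of Gm13748 and Gm26649 on the opposite strand. Neuronal markers were lower in sum with hemin too, with Tubb3 and Neurod6 called lower of 6 tested, beside 15.7% of all genes. Rbfox3, Syt1 and Stmn2 were not called, at log2 fold changes of -0.73, -0.23 and -0.52 (edgeR adjusted p = 0.0698, 0.396 and 0.0555). Stmn2 was called lower under 5 of 13 alternatives, DESeq2 among them (adjusted p = 0.0314), and Rbfox3 under 1. Snap25 was not called either and was higher in mean with hemin, at 28.2 FPKM against 24.6 FPKM with vehicle. The part of neurons in the Klf7 value was not tested.

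Klf2, the shear-stress-induced factor of endothelium, which also keeps T cells quiescent, was near the detection limit. It had 7, 5 and 17 counts with hemin and 3, 6 and 8 with vehicle, or 0.45, 0.32 and 1.11 FPKM with hemin against 0.19, 0.39 and 0.51 FPKM with vehicle. The groups overlapped, and the highest value came from hemin replicate 3. Klf2 did not pass the low-count filter. Tested without that filter its log2 fold change was 0.77 (edgeR adjusted p = 0.385), so a change was not detectable at this depth.

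Of the members that recruit Sin3, Klf10 rose, Klf13 fell, and Klf9 and Klf11 did not pass. Klf10, the TGF-β-inducible early gene TIEG1, had 31.0, 50.7 and 41.4 FPKM with hemin, against 14.2, 11.0 and 9.45 FPKM with vehicle. The lowest hemin value was above the highest vehicle value, although the hemin libraries spread widely. Hemin over vehicle, Klf10 had a log2 fold change of 1.88 ± 0.21 (SE; edgeR adjusted p = 0.00101). Klf10 is the only member with more than 1 annotated transcript in the files. The longer, of 3056 bases, carried 98.9% to 99.7% of its counts in the hemin libraries and at least 99.4% in the vehicle libraries, and the shorter, of 2148 bases, had 0.12, 0.82 and 0.23 FPKM with hemin and 0, 0.10 and 0 FPKM with vehicle.

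Klf11, the close relative TIEG2, had 2.30, 2.79 and 2.36 FPKM with hemin, against 1.21, 2.07 and 1.63 FPKM with vehicle. The hemin values lay above the vehicle values by a margin smaller than the spread within vehicle. On the log2 scale Klf11 differed by 0.65 ± 0.24 (SE; edgeR adjusted p = 0.0744), and it did not pass under any of the 13 alternatives (adjusted p from 0.0606 to 0.192). Counting Klf11, 7 of the 9 tested members had groups that did not overlap in CPM, against 48.9% of all genes tested.

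Klf13, a factor of the BTEB group described in erythroid and T cells, had 4.60, 3.26 and 3.39 FPKM with hemin, against 11.1, 11.7 and 13.1 FPKM with vehicle. The groups stood far apart, with mean levels of 3.75 ± 0.739 FPKM with hemin and 11.9 ± 1.03 FPKM with vehicle (SD, n = 3 each). Klf13 had a log2 fold change of -1.61 ± 0.18 (SE; edgeR adjusted p = 0.00101), the 231st lowest of the genes tested.

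Klf9, which thyroid hormone and glucocorticoids induce and which promotes the differentiation of oligodendrocytes, had 6.91, 4.93 and 4.90 FPKM with hemin, against 9.10, 6.60 and 4.57 FPKM with vehicle. The groups overlapped, since vehicle replicate 3 was the lowest of all 6 libraries and vehicle replicate 1 the highest. The log2 fold change was -0.22 ± 0.28 (SE; edgeR adjusted p = 0.592), and its sign turned to 0.067 without vehicle replicate 1.

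The CtBP-dependent repressor Klf3 had 29.7, 24.3 and 21.3 FPKM with hemin, against 28.9, 28.0 and 26.9 FPKM with vehicle. The hemin values straddled those of vehicle and spread more widely. The log2 fold change was -0.10 ± 0.15 (SE; edgeR adjusted p = 0.667), and 0.026 without hemin replicate 3. Its exons overlap those of Gm20033 on the opposite strand, and the sources used here do not say whether the libraries were stranded.

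Klf15, which drives the use of amino acids and fat in liver and muscle, had 1.93, 1.41 and 1.02 FPKM with hemin, against 5.08, 7.24 and 5.29 FPKM with vehicle. The highest hemin value was below the lowest vehicle value. The log2 fold change was -1.95 ± 0.30 (SE; edgeR adjusted p = 0.0033), the 113th lowest of the genes tested and the greatest fall of the family.

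The order of the members by level differed between the groups. In the hemin libraries Klf10 and Klf6 led, at 41.0 ± 9.85 and 39.8 ± 2.33 FPKM (SD, n = 3), with ranges that overlapped, and Klf3 followed at 25.1 ± 4.28 FPKM. In the vehicle libraries Klf3 led at 27.95 ± 1.02 FPKM, apart from Klf6 at 19.8 ± 1.58 FPKM, which was followed by Klf13 and Klf10 with overlapping ranges at 11.9 ± 1.03 and 11.5 ± 2.41 FPKM. Below the leaders, the hemin order ran from Klf4 and Klf9, whose ranges overlapped, through Klf13 and Klf11 to Klf15, Klf7 and Klf2, of which each overlapped the next. The vehicle order below Klf10 ran from Klf9 and Klf15, which overlapped, through Klf7 and Klf11, which overlapped, to Klf4 and Klf2, which overlapped at the bottom.

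The summed level of the 10 members was 123.5, 136 and 120 FPKM in the hemin libraries, against 93.2, 87.5 and 84.8 FPKM in the vehicle libraries. Every hemin library was above every vehicle library. Klf10 made up 32.3 ± 6.36% of that sum with hemin and 13.0 ± 2.06% with vehicle, and Klf6 31.5 ± 0.482% with hemin and 22.4 ± 1.96% with vehicle. Klf13 made up 2.98 ± 0.679% with hemin and 13.5 ± 1.78% with vehicle, Klf15 1.15 ± 0.369% with hemin and 6.66 ± 1.46% with vehicle, and Klf3 19.9 ± 3.62% with hemin and 31.6 ± 0.484% with vehicle (SD, n = 3 each). The share of Klf3 was lower with hemin, where the sum was higher, while its own level did not pass the test.

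**Figure D2:**
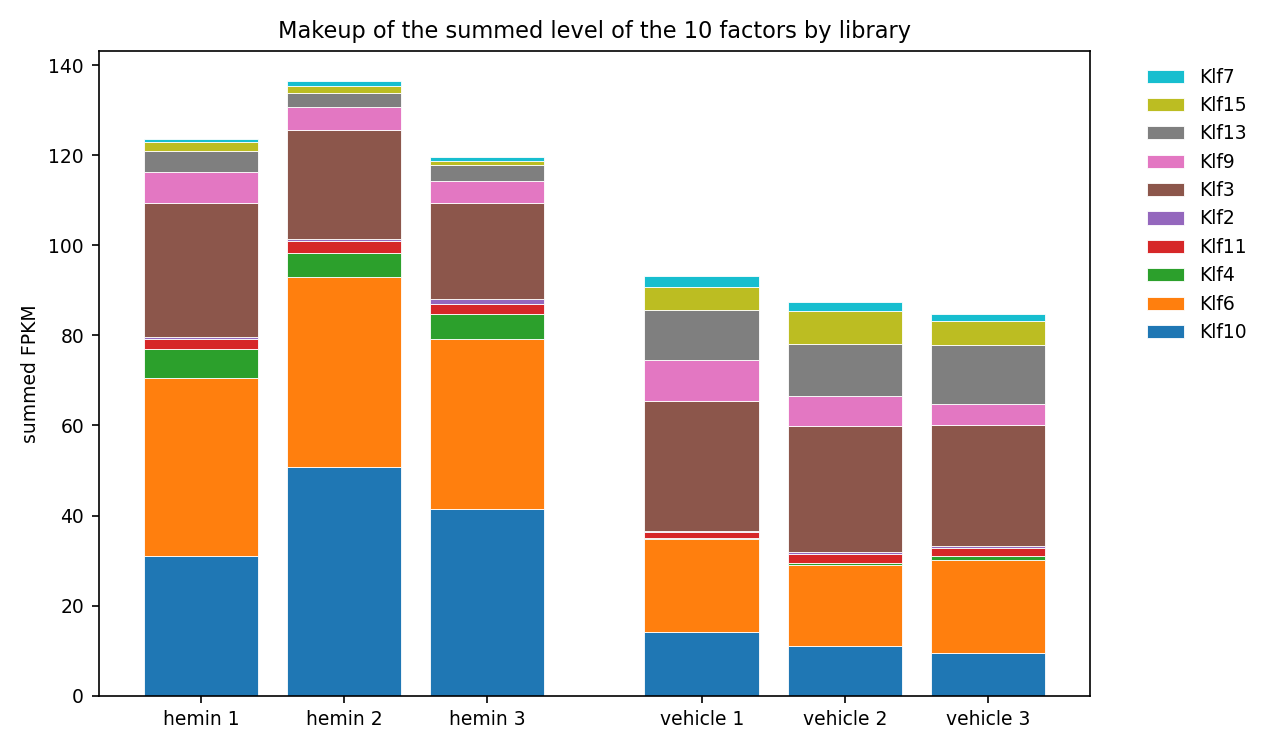
Summed FPKM of the 10 factors in each library, stacked by factor, with the 3 hemin libraries on the left and the 3 vehicle libraries on the right. The hemin bars reach 120 to 136 FPKM and are mostly Klf10 and Klf6 at the bottom, whereas the vehicle bars reach 84.8 to 93.2 FPKM with broader bands of Klf13 and Klf15 near the top.

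Among the 7 other Kruppel-like factors, Klf5 rose, at a size close to that of Klf4. Klf5, a factor of proliferating epithelium and vascular smooth muscle, had 6.04, 5.27 and 6.27 FPKM with hemin, against 0.48, 0.34 and 1.01 FPKM with vehicle, with no overlap. The log2 fold change was 3.30 ± 0.39 (SE; edgeR adjusted p = 0.00135), and it became 3.89 without vehicle replicate 3. Klf8, at 1.00 ± 0.216 FPKM with hemin and 1.05 ± 0.202 FPKM with vehicle, and Klf16, at 4.62, 7.56 and 9.10 FPKM with hemin against 5.26, 6.71 and 6.53 FPKM with vehicle, did not pass (edgeR adjusted p = 0.979 and 0.478). Klf1, Klf14 and Klf17 had too few reads to be tested, and Klf12 was listed in none of the 6 libraries and counted as 0. Klf14 had 9, 7 and 4 counts with hemin and 1, 0 and 0 with vehicle.

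Klf1 is the erythroid factor of the family and hemin is a classic inducer of erythroid genes in blood precursors. Klf1 had 0, 0 and 1 counts with hemin and 0, 0 and 2 with vehicle. Of 10 erythroid genes, none reached the count needed for a test, Gata1, Alas2, Ahsp and Hbb-b1 were listed in none of the libraries, and the list summed to 0.52 to 1.75 FPKM with hemin and 1.00 to 1.34 FPKM with vehicle.

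Of the Sp factors, which share the zinc fingers and the GC box, 6 of 9 were tested and 1 passed. Among all genes tested 31.9% passed. Sp8, a factor of forebrain patterning and interneurons, had 0.33, 0.03 and 0.52 FPKM with hemin, against 1.31, 1.90 and 2.52 FPKM with vehicle (log2 fold change -2.66 ± 0.68, SE; edgeR adjusted p = 0.0227). Leaving out vehicle replicate 2 or 3 ended this call (edgeR adjusted p = 0.0578 and 0.0664), and its log2 fold change became -3.27 without hemin replicate 3. The ubiquitous Sp1 stood at 16.3 ± 2.77 FPKM with hemin and 14.4 ± 0.972 FPKM with vehicle (edgeR adjusted p = 0.255). The median log2 fold change was -0.17 over the 6 tested Sp factors, -0.10 over the 9 tested members and 0.00 over all genes tested.

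**Figure D3:**
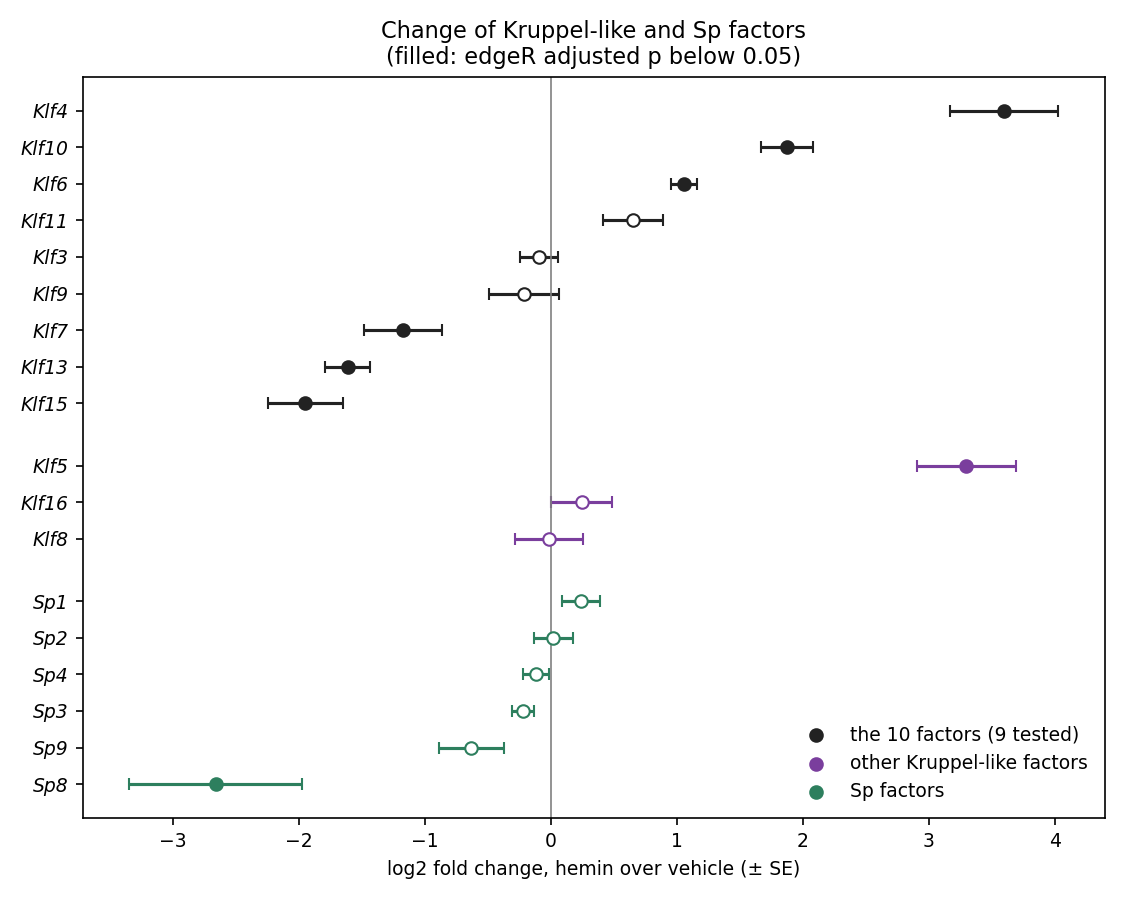
Log2 fold change of hemin over vehicle with its SE for the 9 tested members, 3 other Kruppel-like factors and 6 Sp factors, sorted within each set, with filled points where the edgeR adjusted p was below 0.05. Klf4 and Klf5 lie at 3.60 and 3.30, Klf15 and Klf13 at -1.95 and -1.61, and all Sp factors other than Sp8 lie between -0.63 and 0.24.

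The cofactors that KLFs bind changed in both directions. Of 12 tested, 3 were called higher and 3 lower, with a median log2 fold change of -0.05. The shares over all genes tested were 16.2% higher and 15.7% lower. Crebbp, the acetyltransferase CBP, stood at 5.86 ± 0.916 FPKM with hemin and 3.15 ± 0.402 FPKM with vehicle and rose (edgeR adjusted p = 0.0044), as did Sin3b, one of the Sin3 scaffolds, at 97.8 ± 19.2 FPKM with hemin and 74.2 ± 5.38 FPKM with vehicle (0.0056; 0.0794 in limma), and the deacetylase Hdac2 (0.0297). Ctbp1, the partner of Klf3, fell 1.32-fold, at 66.7 ± 8.82 FPKM with hemin and 91.5 ± 2.81 FPKM with vehicle (edgeR adjusted p = 0.02), and Sin3a fell too (0.0278). The calls of Ctbp1 and Sin3a were lost without hemin replicate 2 or vehicle replicate 1, 2 or 3 (edgeR adjusted p from 0.0575 to 0.0856 for Ctbp1 and from 0.0526 to 0.101 for Sin3a), and that of Hdac2 under 8 of 13 alternatives (adjusted p from 0.0594 to 0.101), with hemin replicate 2 or any vehicle replicate left out among them.

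Ubiquitin ligases that act on KLF proteins were mostly not called, beside 31.9% called over all genes tested. Of 6 tested, Itch was called, at 25.4 ± 3.06 FPKM with hemin and 19.6 ± 1.19 FPKM with vehicle (edgeR adjusted p = 0.032), a call lost without hemin replicate 1 or 2 or any vehicle replicate (0.058 to 0.107), with scaling by library totals alone (0.0553) and with no low-count filter (0.051). Smurf1 stood at 8.49 ± 1.29 FPKM with hemin and 9.93 ± 0.780 FPKM with vehicle (edgeR adjusted p = 0.411).

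Several kinases and MEF2 factors of the MEK5-ERK5 route, which induces Klf2 and Klf4 in endothelium, changed, and ERK5 itself was lower. Of 7 tested genes 4 rose and 1 fell, with a median log2 fold change of 0.90. Among all genes tested 16.2% were called higher and 15.7% lower. Map3k2, a kinase at the head of the route, had 14.2, 14.9 and 13.3 FPKM with hemin, against 4.77, 4.52 and 4.07 FPKM with vehicle (log2 fold change 1.72 ± 0.10, SE; edgeR adjusted p = 0.000199). Mapk7, which encodes ERK5, had 7.62, 9.23 and 8.69 FPKM with hemin, against 15.9, 16.0 and 15.0 FPKM with vehicle (-0.83 ± 0.11; 0.00214). Both genes separated the groups without overlap. The transcription factor Mef2a stood at 29.4 ± 5.91 FPKM with hemin and 16.2 ± 0.745 FPKM with vehicle (edgeR adjusted p = 0.00595), Map3k3 at 1.81 ± 0.0666 FPKM with hemin and 0.903 ± 0.191 FPKM with vehicle (0.0203), and Mef2d was called higher as well (0.025). The calls of Map3k3 and Mef2d were lost when single libraries were left out, Map3k3 without hemin replicate 2 (edgeR adjusted p = 0.0593), vehicle replicate 1 (0.0568) or vehicle replicate 3 (0.0504), and Mef2d without hemin replicate 3 (0.0681) or vehicle replicate 1 (0.0765).

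Genes of TGF-β signalling, the pathway after which Klf10 and Klf11 were named, were higher where they were called. Of 13 tested 6 rose, with a median log2 fold change of 0.45, beside 16.2% of all genes called higher. The feedback inhibitors Tgif1, Skil and Smad7 rose 5.49-fold, 2.22-fold and 3.99-fold (edgeR adjusted p = 0.00061, 0.00079 and 0.00135). Smad7 stood at 2.48 ± 0.474 FPKM with hemin and 0.637 ± 0.101 FPKM with vehicle. The receptor Tgfbr2 and the shared mediator Smad4 were called as well (edgeR adjusted p = 0.019 and 0.0496), Tgfbr2 not without vehicle replicate 2 (0.0655), and Smad4 not under 10 of 13 alternatives, among them leaving out hemin replicate 1 or 2 or any vehicle replicate (0.0774 to 0.151). The corepressor Ski stood at 14.9 ± 3.41 FPKM with hemin and 18.9 ± 1.07 FPKM with vehicle (0.257), and it was called lower without hemin replicate 1 (0.0134).

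Classic targets of the glucocorticoid receptor, a route to Klf9, Klf13 and Klf15, moved both ways. Of 9 tested genes 4 rose and 2 fell, with a median log2 fold change of 0.80. Among all genes tested 16.2% were called higher and 15.7% lower. Sgk1, a kinase of ion transport, had 29.2, 28.2 and 33.6 FPKM with hemin, against 8.14, 8.46 and 8.37 FPKM with vehicle (log2 fold change 1.84 ± 0.11, SE; edgeR adjusted p = 0.000191). Dusp1, a MAP kinase phosphatase, and Per1, a clock gene, rose 3.29-fold and 3.71-fold (edgeR adjusted p = 0.000767 and 0.00465). These genes also respond to other stimuli than glucocorticoids. Fkbp5, a chaperone of the receptor, stood at 9.74 ± 0.189 FPKM with hemin and 13.7 ± 0.338 FPKM with vehicle and fell (edgeR adjusted p = 0.0148), a call lost without vehicle replicate 1, 2 or 3 (0.053, 0.0628 and 0.0519). The receptor target Tsc22d3 was called higher and Zbtb16 lower (edgeR adjusted p = 0.0188 and 0.0426). Tsc22d3 was not called without hemin replicate 2 or vehicle replicate 2 or 3 (0.0554 to 0.0685), nor Zbtb16 without any 1 of the hemin libraries or without vehicle replicate 1 or 2 (0.0602 to 0.157). The Zbtb16 call was also lost in DESeq2 (adjusted p = 0.0594) and in limma on log2(FPKM + 0.1) (0.0561). The receptor gene Nr3c1 had 11.5, 9.39 and 3.04 FPKM with hemin and 3.56, 9.59 and 10.8 FPKM with vehicle, with 1 low library in each group (edgeR adjusted p = 0.943).

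Of 6 tested thyroid hormone genes, which bear on Klf9, 1 was called, beside 31.9% of all genes tested. Dio2, the deiodinase that activates the hormone, stood at 10.3 ± 2.43 FPKM with hemin and 21.7 ± 5.56 FPKM with vehicle (log2 fold change -1.01 ± 0.25, SE; edgeR adjusted p = 0.0184). That call was lost without hemin replicate 2 (0.0553) or vehicle replicate 1 (0.0629) or 2 (0.0577). Dio2 is expressed by astrocytes, of whose 6 markers Gja1 was called higher and Aqp4 lower, Aqp4 not without hemin replicate 2 or 3 or vehicle replicate 1 or 2 (edgeR adjusted p from 0.0518 to 0.0639).

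Of 8 tested genes of the gp130-STAT3 axis 1 rose and 2 fell, beside 16.2% higher and 15.7% lower over all genes. Lif, a cytokine of this axis that supports oligodendrocytes, had 1.97, 1.75 and 1.93 FPKM with hemin, against 0.60, 0.33 and 0.78 FPKM with vehicle (log2 fold change 1.77 ± 0.33, SE; edgeR adjusted p = 0.00718). Jak2 and Stat3, the kinase and transcription factor downstream, were 1.29-fold and 1.24-fold lower (edgeR adjusted p = 0.0325 and 0.0437). Both calls were lost when single libraries were left out, that of Jak2 without hemin replicate 2 or 3 or vehicle replicate 1 or 2 (0.0669 to 0.153) and that of Stat3 without hemin replicate 1 or 2 or any vehicle replicate (0.0584 to 0.208).

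Genes known as targets of the members were tested in small numbers, beside 31.9% called over all genes. Among 4 tested vascular targets of KLF2 and KLF4, 1 was called. This was Edn1, the vasoconstrictor endothelin that KLF2 represses in endothelium, which had 105 counts over the hemin libraries and 2 over the vehicle libraries, a ratio of 51.4 with a 95% interval of 13.9 to 430 that covers counting error only. S1pr1, a lipid receptor that KLF2 activates in T cells, stood at 19.4 ± 1.70 FPKM with hemin and 23.5 ± 3.60 FPKM with vehicle (edgeR adjusted p = 0.238). Of 5 tested metabolic and amine oxidase targets of KLF15 and KLF11 none was called by edgeR, with 0 at an unadjusted p below 0.05, and none by DESeq2 or limma. Maob, the monoamine oxidase that KLF11 activates, stood at 1.20 ± 0.282 FPKM with hemin and 0.890 ± 0.174 FPKM with vehicle (edgeR adjusted p = 0.276).

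**Figure D4:**
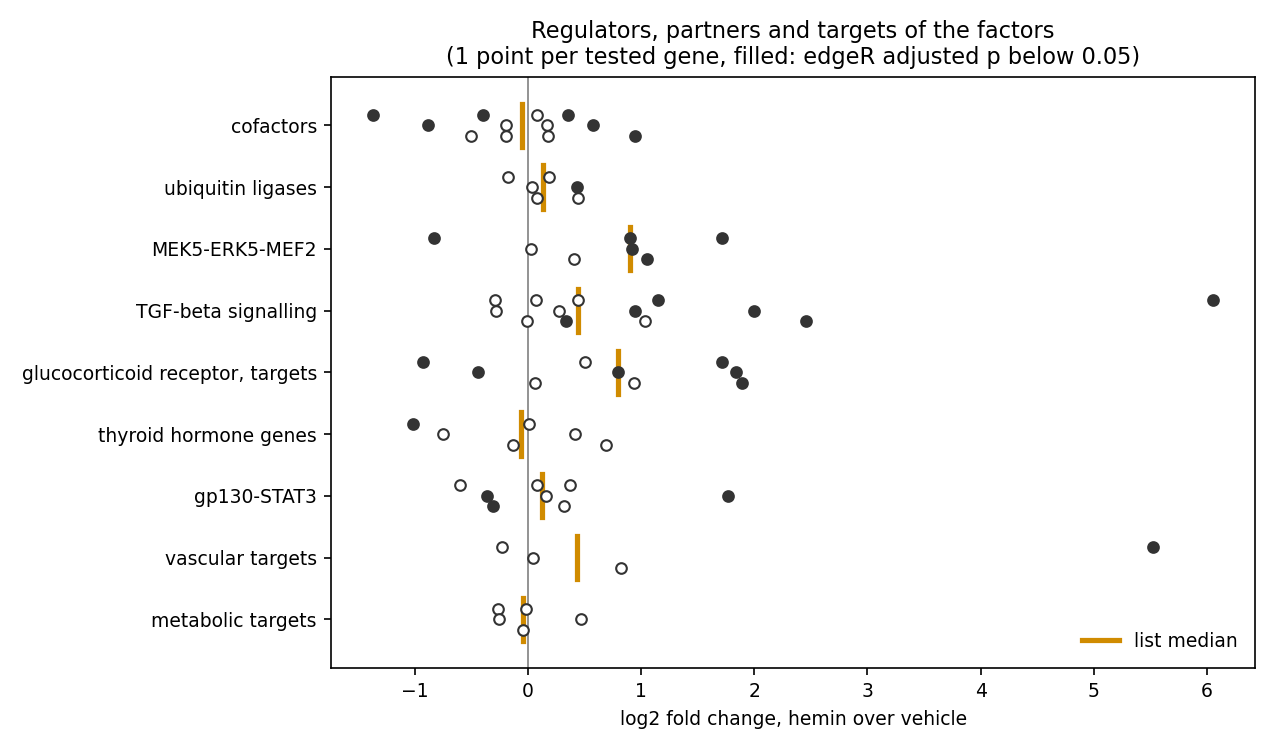
Log2 fold change of hemin over vehicle for each tested gene of 9 lists of partners, upstream routes and targets of the factors, filled where the edgeR adjusted p was below 0.05, with a bar at the median of each list. The medians lie between -0.06 for the thyroid hormone genes and 0.90 for the MEK5-ERK5-MEF2 route, and Edn1 lies at 5.52 on this fitted scale.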

How the data were processed

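RNA-seq libraries from 3 hemin and 3 vehicle samples were grouped by their titles. Per the file headers, each table of annotated transcripts holds expected counts, which are the authors' unnormalized and sometimes fractional read estimates, alongside FPKM, a value the authors divided by transcript length and library size. Bowtie 0.12.2 and RSEM are named in the submitters' processing notes, as are builds without a role, so the promoters are tied to the members by symbol only. Tables of unannotated features were not used.

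Transcripts were summed per gene, a gene absent from a table being 0, and 18711 of 18743 genes matched a RefSeq symbol (GRCm38.p6), 16 identifiers through a transcript accession. Rounded counts were tested with edgeR 4.0.16 in R 4.3.3: filterByExpr by group (10 counts at the median depth, 1.56 CPM, in at least 3 libraries), TMM factors, then a two-sided glmQLFTest on the glmQLFit of group alone. Adjustment was by Benjamini-Hochberg over 12779 genes, with calls below 0.05. The SE is the log2 fold change divided by the square root of F. Alternatives were other scalings, no filter, DESeq2 1.42.0, limma 3.58.1 on log2(FPKM + 1) or log2(FPKM + 0.1), the replicate number as a block and each library left out.

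The members and lists were chosen with earlier results of these data known. The rule for named genes took all members and, per list, every called gene or, above 4, the 4 with the smallest p, plus the most significant against the majority. Hdac2, Sin3a, Mef2d, Tsc22d3, Zbtb16, Tgfbr2, Smad4, Klf16, Nr3c1, Klf1, Klf12, Klf14 and Klf17 lie outside it and were added after their values were seen. Protein sequences and a Klf10 promoter were not analysed here. Some called genes of the lists are counted but not reported here by name.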

Additional observations from a re-analysis of the deposited data

How the results depend on the processing

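Klf4, Klf6 and Klf10 were called higher and Klf13 and Klf15 lower under all 13 alternatives. The number of members called higher was 3 in every one, and that called lower was 2 or 3, the 2 arising where the Klf7 call was lost. The log2 fold change of Klf3 lay between -0.27 and 0.026 and that of Klf9 between -0.43 and 0.067 when single libraries were left out, so neither has a settled sign. On the log2(FPKM + 1) scale, which understates changes of low genes, Klf4 rose by 2.21 and Klf7 fell by 0.72. With the replicate number as a block, 3 members were called higher and 2 lower, Klf7 being lost (edgeR adjusted p = 0.0545), and the block also ended the calls of Zbtb16 (0.0677), Stat3 (0.0598) and Smad4 (0.0764). Same-numbered libraries shared deviations only weakly (r = 0.0631, 0.1 and 0.157 for replicates 1 to 3), so the numbers were not taken as pairs. Across the groups, the deviations of every library from its group mean correlated best with those of the library of its own number. This is a hint from the data and not from the design. Over all genes 4077 were called, 3728 with the block, 2597 without vehicle replicate 1 and 2551 without vehicle replicate 2. At these depths Klf2 rested on 3 to 17 counts per library, too few for a test.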
